A study of Homo sapiens with 4 samples.

Results

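Interferon-stimulated genes, 35 of the 58735 genes in the deposited table, were followed in HFL1 cells labelled KO for calumenin (CALU) and in HFL1 cells labelled WT. Membership went by gene name, with no threshold on any value, and all 35 names had a row. HFL1 is a human fetal lung fibroblast line, and the study asked how calumenin, which binds calcium in the endoplasmic reticulum, bears on senescence and fibrosis signals in fibroblasts. RNA was sequenced in 4 libraries, KO replicates 1 and 2 and WT replicates 1 and 2. The labels name no interferon, virus or other agent in any group, and do not say whether the KO cells were 1 clone or whether each library had its own culture. The p-values therefore rest on the spread of 2 libraries in each group, pooled in part over all tested genes, and that spread may be technical.

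Type I interferons bind the receptor chains IFNAR1 and IFNAR2, whose kinases JAK1 and TYK2 phosphorylate STAT proteins. STAT2 and IRF9 are subunits of ISGF3, a factor that binds the interferon-stimulated response element in promoters. The genes it switches on include sensors of viral RNA, enzymes that act on RNA and membrane proteins that hinder virus entry. They also include the factors of the pathway itself. Many interferon-stimulated genes keep a low level without added interferon.

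Members that later differ in their change are shown here by the 200 bases before their RefSeq start on the plus strand of GRCh38.p14, so that their promoter letters can be set beside their values. They are IFIT1 (chr10:89392423-89392622) and its neighbour IFIT3 (chr10:89327797-89327996), OAS3 (chr12:112938274-112938473) and its neighbour OAS1 (chr12:112906762-112906961), and IFI35 (chr17:43006584-43006783). Capitals mark matches to GAAANNGAAA, the core of the response element, on either strand, so that a match on the opposite strand reads TTTCNNTTTC here.
IFIT1: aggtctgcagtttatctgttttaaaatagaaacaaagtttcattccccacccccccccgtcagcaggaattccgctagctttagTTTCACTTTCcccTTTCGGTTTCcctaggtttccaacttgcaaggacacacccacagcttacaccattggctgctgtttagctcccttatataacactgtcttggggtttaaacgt
IFIT3: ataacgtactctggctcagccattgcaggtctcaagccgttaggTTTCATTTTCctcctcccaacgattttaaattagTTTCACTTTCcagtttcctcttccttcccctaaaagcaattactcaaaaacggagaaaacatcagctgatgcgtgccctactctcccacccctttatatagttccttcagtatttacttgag
OAS3: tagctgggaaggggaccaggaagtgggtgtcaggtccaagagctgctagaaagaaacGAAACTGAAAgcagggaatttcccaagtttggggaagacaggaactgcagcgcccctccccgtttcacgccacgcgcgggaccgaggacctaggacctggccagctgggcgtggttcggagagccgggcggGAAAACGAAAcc
OAS1: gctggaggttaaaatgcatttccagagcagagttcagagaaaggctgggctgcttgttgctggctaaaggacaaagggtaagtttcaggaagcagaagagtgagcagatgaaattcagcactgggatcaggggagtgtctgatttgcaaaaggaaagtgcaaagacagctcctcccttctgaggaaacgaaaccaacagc
IFI35: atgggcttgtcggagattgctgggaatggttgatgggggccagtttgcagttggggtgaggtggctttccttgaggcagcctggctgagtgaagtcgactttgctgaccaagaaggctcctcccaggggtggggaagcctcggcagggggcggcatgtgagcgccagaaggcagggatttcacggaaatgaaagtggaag
The windows of IFIT1, IFIT3 and OAS3 held 2 matches each, and those of OAS1 and IFI35 held 0. Near their ends the OAS1 and IFI35 windows hold GAAA pairs at a shorter gap, gaaacgaaa and gaaatgaaa, which the pattern cannot match. A window with 0 matches is therefore not shown to lack the element. Over the 250 bases before each start, 19 of the 28 members with a RefSeq window (67.9%) held the core, against 1014 of all 27305 genes with a window (3.71%). Overlapping matches were allowed, and a gene counted once however many starts it had. The core of the gamma-activated site, TTCNNNGAA, was in 8 of the 28 members (28.6%) and in 2208 of 27305 genes (8.09%). Both cores lay in 1 window in 5 members, BST2, DDX60, IFI27, IFITM1 and MX1, and the matches shared bases in BST2, IFI27 and MX1. A match is a description of letters and not of a bound site. IFIT2, IFITM2, OAS2, OASL, MX2, IRF7 and USP18 had no entry.

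CALU itself stood at 6.59 and 5.95 FPKM in the KO libraries, against 87.7 and 81.8 FPKM in the WT libraries (log2 change -3.56, SE 0.14, limma adjusted p = 0.00154). Depth, as whole reads recovered from FPKM, ran from 16622382 to 17699349 reads in KO and from 16173899 to 17715774 in WT libraries. The labelled cell type was checked against marker genes. Of 10 fibroblast markers 8 stayed below 1 FPKM in every library, COL1A2 and POSTN had 0 reads, and the summed level of the 10 was 4.78 to 5.40 FPKM in KO and 2.24 to 2.53 FPKM in WT. All 7 markers of simple epithelia were measured, with a summed level of 1883 to 2251 FPKM in KO and 995 to 1134 FPKM in WT, so the label and the markers disagreed. Nearly all of that sum was KRT8, KRT18 and KRT7, while EPCAM stood at 2.04 and 2.04 FPKM in KO and 1.76 and 1.57 FPKM in WT. The lists did not move as 1 block: COL1A1 rose, at 3.04 and 3.16 FPKM in KO against 0.234 and 0.280 FPKM in WT, while LUM was at 0.0569 and 0.243 FPKM in KO against 0.637 and 0.811 FPKM in WT (not tested), and of the epithelial genes 4 rose and CLDN4 fell, at 0.947 and 0.973 FPKM in KO against 4.57 and 5.27 FPKM in WT. Of 10 leukocyte markers 9 were under 1 FPKM throughout, CD3E, CLEC4C and LILRA4 were at 0 reads, and the list summed to 6.17 to 7.23 FPKM in KO and 18.9 to 21.0 FPKM in WT, nearly all of it CD14, which fell. All 5 endothelial markers were under 1 FPKM, summing to 0.214 to 0.237 FPKM in KO and 0.825 to 0.937 FPKM in WT. Of 5 plasmacytoid dendritic cell markers, which include CLEC4C and LILRA4, 3 were under 1 FPKM throughout, and the list summed to 7.58 to 8.11 FPKM in KO and 10.6 to 14.5 FPKM in WT. Most of that sum was IL3RA, which fell, at 6.01 and 6.67 FPKM in KO against 10.1 and 13.8 FPKM in WT. TCF4 rose, at 1.57 and 1.39 FPKM in KO against 0.480 and 0.640 FPKM in WT. The part of these markers in the results below was not tested. In bulk RNA, fewer cells of a type and less RNA per cell cannot be told apart.

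The members were expressed at low levels in both groups. Their median level was 1.82 and 1.5 FPKM in KO libraries, against 1.90 and 2.01 FPKM in WT libraries, and their summed level was 129.7 and 134.9 FPKM in KO, against 117 and 128 FPKM in WT. Of the 35, 19 reached 1 FPKM in every library, 9 stayed below 1 FPKM in every library, and 5 reached 10 FPKM in any library. IFITM2, IFI35, OAS3, OAS1 and IFI6 had the highest means. At the low end XAF1, MX2, RSAD2 and OAS2, all strongly interferon-inducible genes, had 3, 15, 8 and 31 reads over the 4 libraries together.

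**Figure D1:**
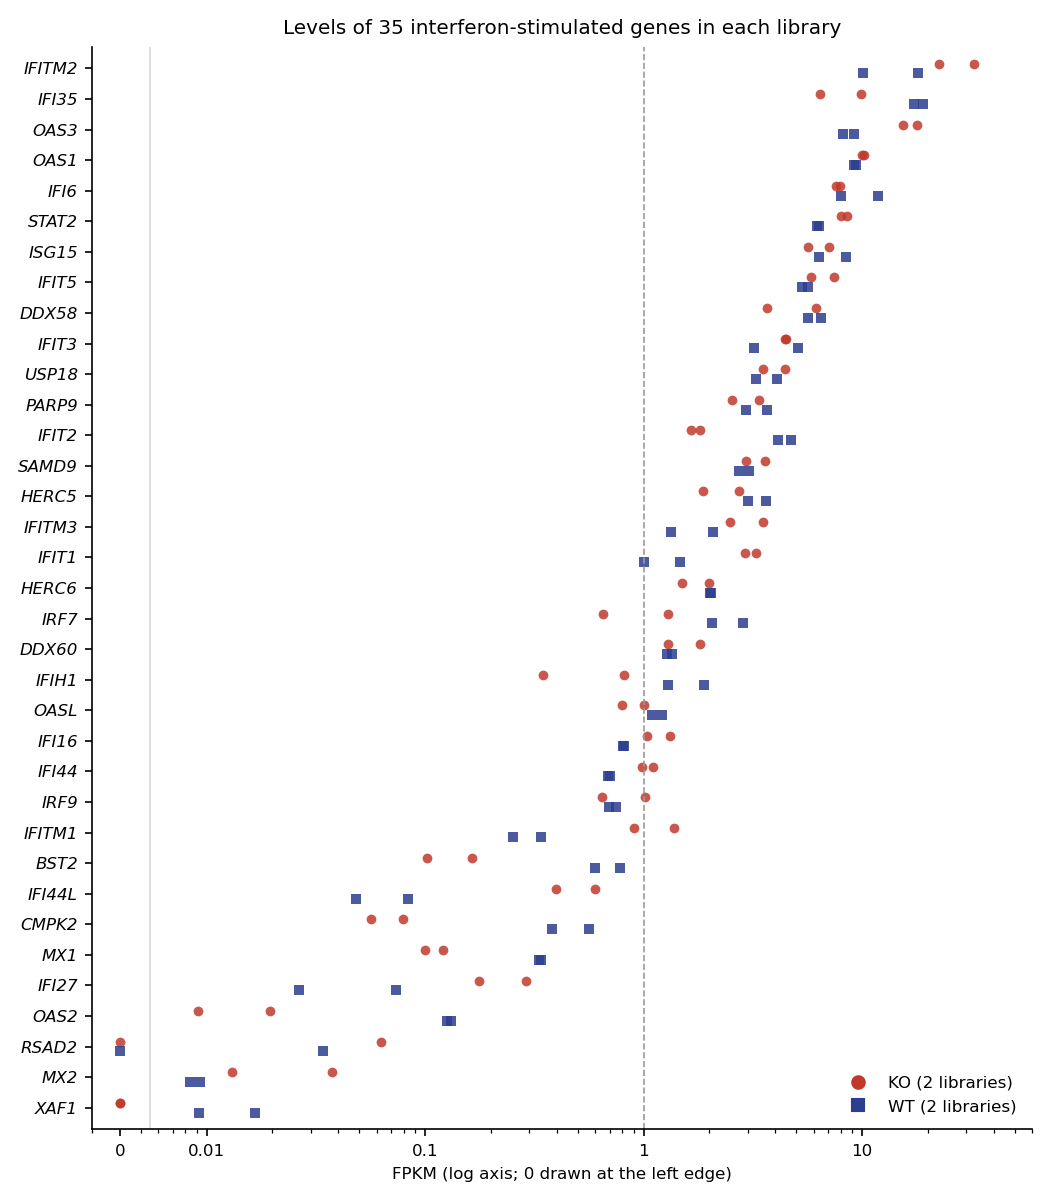
Level of each of the 35 members in FPKM on a log axis, with circles for the 2 KO libraries and squares for the 2 WT libraries, ordered by mean level. The dashed line marks 1 FPKM, 0 is drawn at the left edge, and IFITM2 is highest, with 22.4 and 32.6 FPKM in KO and 10.2 and 18.0 FPKM in WT.

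Members moved in both directions, and the largest share did not pass the test. Genes with at least 1 FPKM in at least 2 libraries were tested, which kept 23 of the 35. Of these 23, IFIT1 and OAS3 rose, IFIT2 and IFI35 fell, and 19 were not called (limma on log2(FPKM + 1), Benjamini-Hochberg adjusted p under 0.05 over 14100 genes). That is 17.4% of the tested members, against 23.3% of all tested genes, of which 12.1% were higher and 11.1% lower in KO. The members' share was thus near that of all genes and slightly below it. Their median log2 change was 0.09, against 0.03 over all tested genes. At an unadjusted p under 0.05, 9 of the 23 members and 5478 of all tested genes (38.9%) passed. Both KO libraries lay above both WT libraries for 8 of the 23 members and below them for 8, while 7 overlapped; the background over all tested genes was 34.4% above and 31.3% below. With no filter on low values, where limma tested 32306 genes, 0 of the 4 calls held (adjusted p = 0.0588 to 0.0958). Leaving out 1 WT library also ended each of them, as given with each gene.

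**Figure D2:**
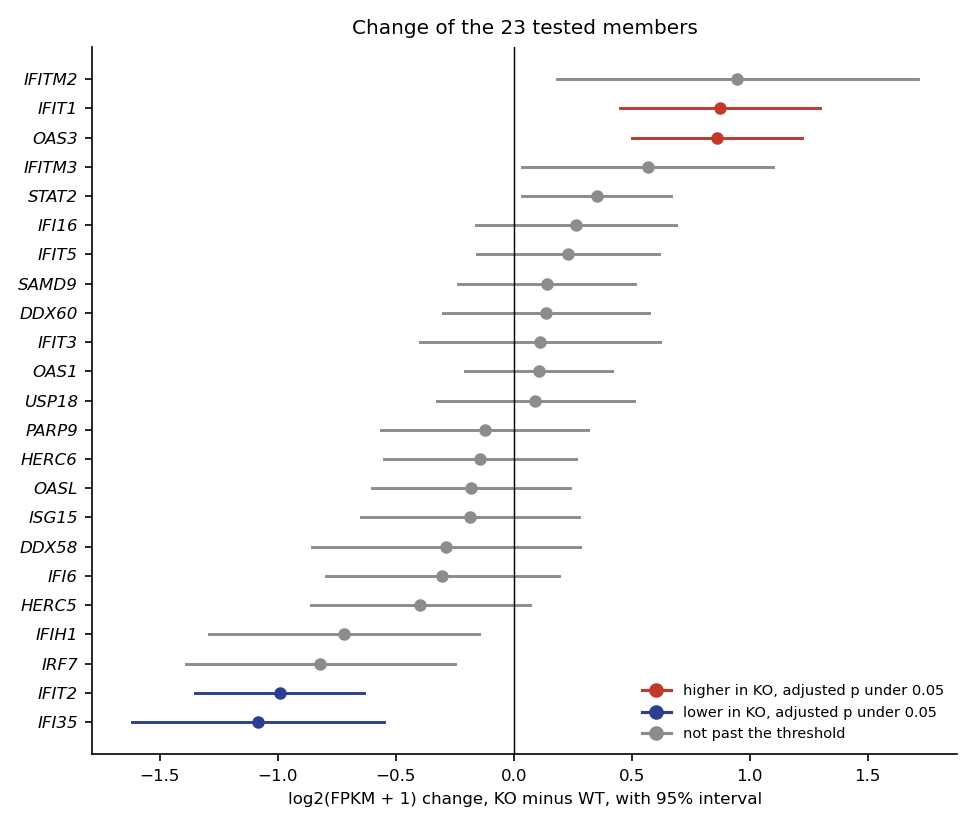
Change of the 23 tested members on the log2(FPKM + 1) scale, KO minus WT, with limma's 95% interval, ordered by size. Red points are higher in KO and blue points lower in KO past the threshold; grey points, 19 of the 23, did not pass.

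**Figure D3:**
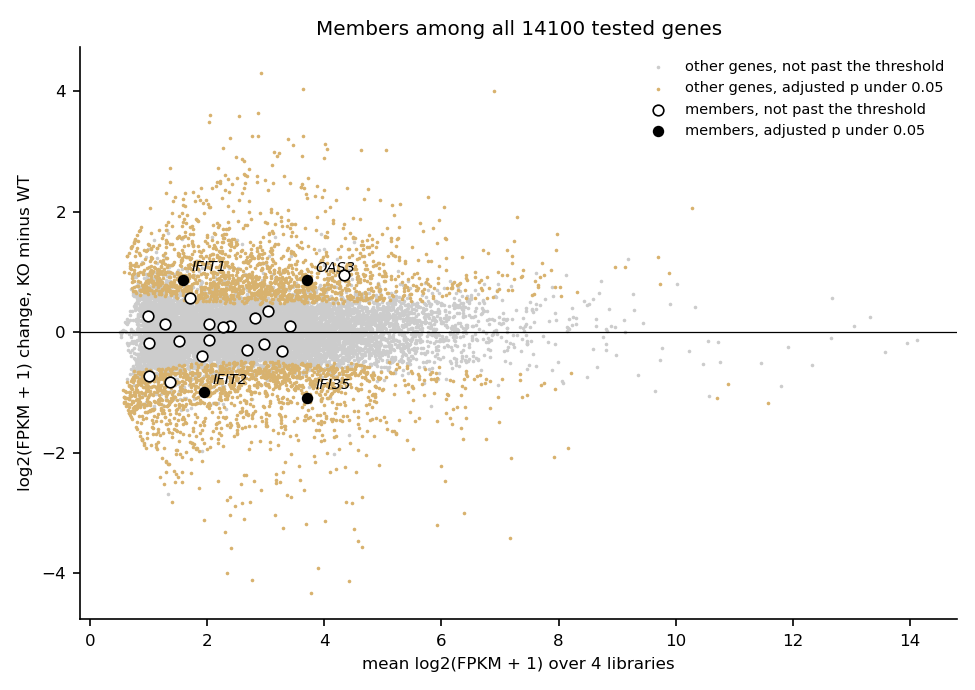
Log2(FPKM + 1) change, KO minus WT, against mean log2(FPKM + 1) for all 14100 tested genes, with the 23 tested members as large circles, filled where called. The members lie on both sides of 0, and the 4 called ones are IFIT1, OAS3, IFIT2 and IFI35.

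The IFIT genes encode tetratricopeptide proteins that bind viral RNA or assemble with one another, and IFIT2, IFIT3, IFIT1 and IFIT5 lie in that order on the plus strand of chromosome 10. IFIT1 (ENSG00000185745, chr10:89392546-89406486 on GRCh38), which binds RNA with an unmethylated cap, stood at 3.27 and 2.91 FPKM in KO libraries, against 1.01 and 1.47 FPKM in WT libraries. Both KO values lay above both WT values, from 264 and 220 reads in KO against 85 and 111 reads in WT. IFIT1 rose 2.49-fold (3.09 ± 0.252 FPKM in KO and 1.24 ± 0.324 FPKM in WT, SD, n = 2 each; limma log2 change 0.88 with SE 0.17, adjusted p = 0.0211), a call lost without WT replicate 1 (adjusted p = 0.124) and without KO replicate 1 (adjusted p = 0.0687).

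IFIT2 (ENSG00000119922, chr10:89283694-89309276), a partner of IFIT1 and IFIT3, moved the other way. It stood at 1.81 and 1.65 FPKM in KO libraries, against 4.13 and 4.75 FPKM in WT libraries, with no overlap between the groups. IFIT2 fell 2.56-fold (1.73 ± 0.112 FPKM in KO and 4.44 ± 0.437 FPKM in WT, SD, n = 2 each; limma log2 change -0.99 with SE 0.14, adjusted p = 0.0102); without WT replicate 2 the adjusted p was 0.0637. The ratio of IFIT1 to IFIT2 within a library, each per length, was 1.81 and 1.76 in KO, against 0.245 and 0.309 in WT, 6.44 times higher in KO on average. This ratio draws on the same values as the IFIT1 and IFIT2 calls and is a description, not a further test. No permutation test was run, because 4 libraries in 2 groups allow no exact two-sided permutation p under 0.333.

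IFIT3, which stabilises IFIT1, did not pass and its groups overlapped, with 4.46 and 4.51 FPKM in KO libraries and 3.22 and 5.11 FPKM in WT libraries (log2 0.11, 95% interval -0.40 to 0.62). IFIT5 was the most abundant of the cluster, with 7.42 and 5.87 FPKM in KO libraries and 5.31 and 5.65 FPKM in WT libraries (log2 0.23, 95% interval -0.15 to 0.62, not called). LIPA, a lysosomal lipase gene on the opposite strand, spans IFIT1, IFIT2 and IFIT3 in the annotation and stood at 38.3 and 30.2 FPKM in KO and 49.9 and 40.5 FPKM in WT. Strand handling in the counting is not given in the sources used here, so reads of LIPA transcripts within these 3 genes cannot be told apart from theirs.

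The OAS genes encode enzymes that make 2'-5' oligoadenylates, which activate the nuclease RNase L. OAS3 (ENSG00000111331, chr12:112938352-112973249), the longest of them, stood at 17.8 and 15.4 FPKM in KO libraries, against 8.19 and 9.15 FPKM in WT libraries. The groups did not overlap, and OAS3 rose 1.92-fold (16.6 ± 1.68 FPKM in KO and 8.67 ± 0.679 FPKM in WT, SD, n = 2 each; limma log2 change 0.86 with SE 0.14, adjusted p = 0.0144). The call was lost without WT replicate 1 (adjusted p = 0.118) and without WT replicate 2 (adjusted p = 0.0701).

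Its neighbour OAS1 did not pass, at 10.2 and 9.98 FPKM in KO libraries, against 9.44 and 9.22 FPKM in WT libraries (log2 0.11, 95% interval -0.21 to 0.42). The ratio of OAS3 to OAS1 within a library was 1.74 and 1.55 in KO, against 0.868 and 0.992 in WT. It draws on the same values as the OAS3 call and is a description, not a further test. OAS2, the third gene of the cluster, had 1 and 2 reads in KO and 15 and 13 reads in WT, and was below the filter. OASL, a catalytically inactive relative that aids RNA sensing, stood at 1.01 and 0.798 FPKM in KO libraries, against 1.22 and 1.09 FPKM in WT libraries, and was not called.

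The IFITM genes encode small membrane proteins that hinder the fusion of incoming viruses, and their members lie side by side on chromosome 11. IFITM2, the most abundant of all 35, stood at 22.4 and 32.6 FPKM in KO libraries, against 10.2 and 18.0 FPKM in WT libraries. The groups did not overlap, but their spread was wide and the change was not called (log2 0.95, 95% interval 0.18 to 1.71, limma adjusted p = 0.0776; adjusted p = 0.0440 without WT replicate 2, 0.0304 with FPKM rescaled to equal sums, 0.0319 among genes with at least 200 reads over the 4 libraries and 0.00220 with the replicate block). IFITM3 stood at 2.50 and 3.53 FPKM in KO libraries, against 1.34 and 2.08 FPKM in WT libraries (log2 0.57, limma adjusted p = 0.111; adjusted p = 0.0192 with the replicate block).

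IFITM1 stood at 1.37 and 0.904 FPKM in KO libraries, against 0.254 and 0.339 FPKM in WT libraries, from 26 and 16 against 5 and 6 reads, and was below the filter. All 3 IFITM genes thus had both KO values above both WT values, with none of them called. The same order held for 34.4% of all tested genes. It held for 15.3% of the genes below the filter with a read in any library, where IFITM1 belongs. The IFITM genes resemble each other in sequence, IFITM1 lies within the annotated span of IFITM2, and IFITM2 and IFITM3 have antisense annotations over them. The antisense gene AC136475.2 over IFITM2 stood at 3.79 and 7.78 FPKM in KO and 1.68 and 2.96 FPKM in WT. Reads could therefore be split between these genes.

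**Figure D4:**
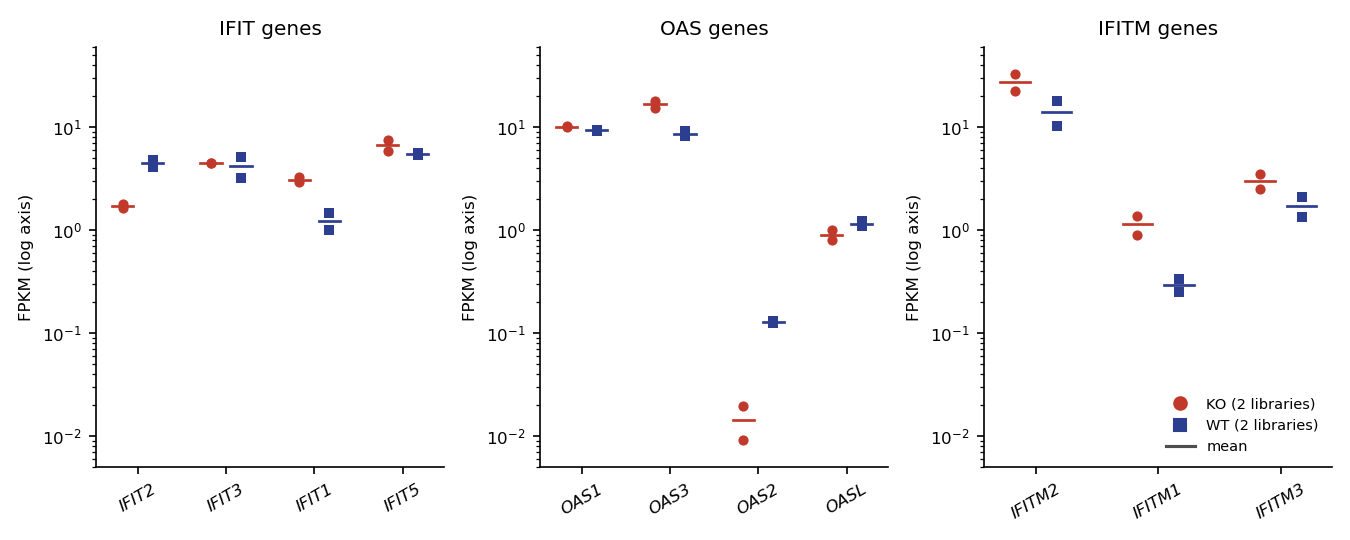
FPKM on a log axis of the IFIT, OAS and IFITM genes, with circles for KO and squares for WT libraries and a line at each group's mean. IFIT2 lies lower and IFIT1 higher in KO, and OAS3 lies higher in KO beside OAS1, which was not called. The 3 IFITM genes each have both KO values above both WT values, as did 34.4% of all tested genes.

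Among the factors of the pathway, STAT2, a subunit of ISGF3, stood at 8.0 and 8.54 FPKM in KO libraries, against 6.33 and 6.19 FPKM in WT libraries, without overlap and without a call (log2 0.35, limma adjusted p = 0.101). IRF9, its DNA-binding partner, was below the filter, at 0.647 and 1.01 FPKM in KO and 0.751 and 0.691 FPKM in WT, and the groups overlapped. IRF7, the factor that amplifies interferon production, stood at 0.652 and 1.3 FPKM in KO libraries, against 2.86 and 2.07 FPKM in WT libraries. Both KO values lay below both WT values, just short of the threshold (log2 -0.82, 95% interval -1.39 to -0.25, limma adjusted p = 0.0539). IRF7 passed with FPKM rescaled to equal sums (adjusted p = 0.0438), rescaled by total reads (adjusted p = 0.0473), with the replicate block (adjusted p = 0.0274), without KO replicate 2 (adjusted p = 0.0416) and among genes with at least 200 reads (adjusted p = 0.0136), over a range of 0.0136 to 0.216 for all its alternatives.

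Among the sensors of viral RNA, IFIH1, which encodes MDA5, stood at 0.816 and 0.346 FPKM in KO libraries, against 1.90 and 1.29 FPKM in WT libraries, without overlap (log2 -0.72, limma adjusted p = 0.0747; adjusted p = 0.0173 with the replicate block and 0.0175 among genes with at least 200 reads). DDX58, which encodes RIG-I, stood at 6.15 and 3.69 FPKM in KO libraries and 6.47 and 5.68 FPKM in WT libraries, with overlapping groups and no call. DDX60, a helicase, was at 1.29 to 1.82 FPKM in KO and 1.27 to 1.35 FPKM in WT, and IFI16, a sensor of DNA, at 1.04 to 1.33 FPKM in KO and 0.807 to 0.818 FPKM in WT, neither called.

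IFI35 (ENSG00000068079, chr17:43006725-43014456), a leucine zipper protein that binds NMI, had the largest log2(FPKM + 1) change of the 23 tested members. It stood at 6.40 and 9.93 FPKM in KO libraries, against 17.2 and 19.0 FPKM in WT libraries, with no overlap. IFI35 fell 2.22-fold (8.16 ± 2.50 FPKM in KO and 18.1 ± 1.23 FPKM in WT, SD, n = 2 each; limma log2 change -1.08 with SE 0.21, adjusted p = 0.0219), with adjusted p = 0.0754 without WT replicate 1 and 0.0932 without WT replicate 2.

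ISG15, the ubiquitin-like modifier, stood at 5.64 and 7.07 FPKM in KO libraries and 8.44 and 6.35 FPKM in WT libraries, with overlapping groups (log2 -0.19, 95% interval -0.65 to 0.28). USP18, the protease that removes ISG15 and dampens the receptor, was at 4.42 and 3.53 FPKM in KO and 4.07 and 3.27 FPKM in WT. HERC5, the main ligase for ISG15, stood at 2.74 and 1.87 FPKM in KO libraries, against 3.62 and 3.02 FPKM in WT libraries (log2 -0.40, limma adjusted p = 0.179). Its relative HERC6 was at 1.5 to 2.0 FPKM in KO and 2.01 to 2.03 FPKM in WT. These 4 members were not called.

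The remaining tested members were IFI6, SAMD9 and PARP9. IFI6, a mitochondrial protein that protects against cell death, stood at 7.59 and 7.90 FPKM in KO and 8.04 and 11.8 FPKM in WT, with a log2 change of -0.30 that did not pass. SAMD9, a translation inhibitor, was at 2.96 to 3.61 FPKM in KO and 2.72 to 3.03 FPKM in WT, and PARP9, an ADP-ribosylation protein, at 2.55 to 3.38 FPKM in KO and 2.94 to 3.67 FPKM in WT.

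Below the filter were 12 members, of which 5 had both KO values above both WT values, 5 had both below and 2 overlapped. Of all 18206 genes below the filter with a read in any library, 15.3% had both KO values above and 19.5% below, many of them on fewer reads. These are descriptions on few reads, and with no filter the limma adjusted p of the 12 ran from 0.0930 (BST2) to 0.827 (RSAD2). IFI44L had 107 and 67 reads in KO and 9 and 14 reads in WT (0.597 and 0.399 FPKM in KO, 0.0482 and 0.0834 FPKM in WT), a 7.57-fold higher mean FPKM, with an adjusted p of 0.0994 when no filter was used. Its neighbour IFI44 had 35 and 37 reads in KO and 26 and 23 reads in WT. IFI27, which sits in mitochondria, had 21 and 12 reads in KO and 2 and 5 in WT.

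In the other direction, CMPK2, a mitochondrial nucleotide kinase, had 6 and 4 reads in KO and 44 and 27 reads in WT, a 6.92-fold lower mean FPKM (adjusted p = 0.0996 with no filter). BST2, the tetherin that holds budding viruses at the cell surface, had 2 and 3 reads in KO and 16 and 11 in WT. MX1, a dynamin-like GTPase, had 15 and 17 reads in KO and 52 and 48 reads in WT, a 3.05-fold lower mean (adjusted p = 0.130 with no filter). MX2 had 3 and 8 reads in KO and 2 in each WT library. RSAD2, the radical enzyme viperin, had 0 and 5 reads in KO and 3 and 0 in WT. XAF1, a pro-apoptotic protein, had 0 reads in both KO libraries and 2 and 1 in WT, and 0 reads allows up to 0.0259 and 0.0277 FPKM in the KO libraries at a floor of 3 reads per library. Such floors cover counting error only.

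Changes were also set beside the promoter letters. Of 18 tested members with a RefSeq window, 12 had a match to the response element core. These 12 included both called risers, IFIT1 and OAS3, and 0 called fallers. They ran from -0.72 to 0.88 on the log2 scale with a median of 0.12. The 6 without a match included IFI35, which fell, and ran from -1.08 to 0.35 with a median of -0.02. OAS1 and IFI35, whose printed windows hold GAAA pairs at a shorter gap, are among these 6. IFIT2, the other called faller, had no window and is in neither group. Over all tested genes 12.1% were called higher and 11.1% lower, and a link between the core and the direction of change was not tested. Members with the core thus lay on both sides of 0, and IFIT1 and IFIT3, printed above with 2 matches each, differed in call.

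Few interferon genes reached 1 FPKM. Of 9 in the list, 7 did not reach 1 FPKM in any library, and IFNB1, IFNG, IFNA2, IFNK and the 3 lambda genes had 0 to 3 reads each over all 4 libraries. IFNE, an interferon known from epithelia of the reproductive tract, was the most abundant, at 6.66 and 5.46 FPKM in KO libraries, against 3.68 and 4.05 FPKM in WT libraries (log2 0.53, limma adjusted p = 0.0547; adjusted p = 0.0493 among genes with at least 5 FPKM, 0.0347 among genes with at least 200 reads and 0.0248 with the replicate block, over a range of 0.0248 to 0.30). It lies within MIR31HG on the same strand, at 11.6 and 13.9 FPKM in KO and 13.2 and 18.3 FPKM in WT, so reads could be shared. IFNA1, chosen for mention after its values were seen, was at 1.46 and 0.636 FPKM in KO and 0.635 and 0.495 FPKM in WT, from 22 and 9 reads in KO and 10 and 7 in WT.

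Of 7 tested receptor and kinase genes limma called 0, with 3 (42.9%) at an unadjusted p under 0.05, against 23.3% of all tested genes called and 38.9% at that p. IFNAR1 stood at 12.7 and 9.03 FPKM in KO libraries, against 17.4 and 16.0 FPKM in WT libraries (log2 -0.59, limma adjusted p = 0.0737), and IFNGR2 at 14.5 and 14.2 FPKM in KO, against 24.3 and 19.6 FPKM in WT (log2 -0.57, limma adjusted p = 0.0502). JAK1 was the most abundant, at 53.6 and 42.9 FPKM in KO and 39.5 and 35.7 FPKM in WT, and was not called. Of 7 tested signal inhibitors, which include USP18, limma called 0, with 1 (14.3%) at an unadjusted p under 0.05, and PTPN11 was the most abundant at 42.6 and 34.9 FPKM in KO and 43.0 and 41.3 FPKM in WT.

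Of 7 tested STAT and IRF factors, which include STAT2 and IRF7, 0 rose and 1 fell (14.3% called, against 23.3% of all tested genes), with 4 (57.1%, against 38.9%) at an unadjusted p under 0.05 in limma. STAT3, which relays cytokines of the interleukin-6 family, stood at 30.1 and 29.1 FPKM in KO libraries, against 55.7 and 54.8 FPKM in WT libraries, and fell 1.87-fold (log2 -0.88, limma adjusted p = 0.0115). It was not called without WT replicate 1 (adjusted p = 0.0971) or without WT replicate 2 (adjusted p = 0.0807).

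Of 12 tested genes of nucleic acid sensing, 0 rose and 2 fell (16.7% called, against 23.3% of all tested genes), TICAM1, the adaptor of TLR3, 1.58-fold and TRIM25, the ligase that activates RIG-I, 1.48-fold. Of 28 further interferon-stimulated genes tested, 1 rose and 5 fell (21.4% called). LAP3, a leucine aminopeptidase, rose 1.54-fold, while ISG20, an exonuclease, fell 5.01-fold, PARP10 2.99-fold, APOL6 1.87-fold, LGALS3BP 1.64-fold and TRIM25 as given. Of 8 tested genes of the interferon-gamma type 4 were called (50%). GBP2, a guanylate-binding protein, rose 1.79-fold, and ICAM1, WARS and TAP1 fell, by 73.6-fold, 1.97-fold and 1.63-fold. ICAM1 stood at 0.231 and 0.296 FPKM in KO libraries, against 22.4 and 16.4 FPKM in WT libraries (log2 -4.00). Its KO values came from 15 and 18 reads, so the size of its fold rests on few reads. ICAM1 is an adhesion receptor that also answers to NF-kB. The chemokine genes CXCL9, CXCL10 and CXCL11, named after their values were seen, had no more than 0.0932 FPKM in any library. Levels beyond the members were ADAR at 43.1 and 37.5 FPKM in KO and 45.2 and 41.3 FPKM in WT, the most abundant sensing gene, and LGALS3BP at 73.7 and 81.9 FPKM in KO and 135 and 121 FPKM in WT.

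Together these lists held 60 tested genes outside the members, of which 2 rose and 10 fell, or 20%, near the 23.3% of all genes. Their median log2 change was -0.20, against 0.03 over all tested genes. Both KO values lay below both WT values for 31 of the 60 (51.7%, against 31.3% of all tested genes) and above them for 11 (18.3%, against 34.4%). Of the 12 calls, 10 were lost without WT replicate 1 (adjusted p = 0.0676 to 0.296), all but ISG20 and ICAM1, 9 without WT replicate 2 (0.0807 to 0.213), 7 without KO replicate 1 (0.0574 to 0.0916) and 4 without KO replicate 2 (0.0611 to 0.0930). GRINA on the opposite strand overlaps PARP10 at 74.9 and 72.5 FPKM in KO and 112 and 94.1 FPKM in WT. C17orf67 on the same strand overlaps TRIM25 at 2.56 and 2.71 FPKM in KO and 4.27 and 3.57 FPKM in WT. On the opposite strand DGKE overlaps TRIM25, at 1.54 and 1.45 FPKM in KO and 2.56 and 2.03 FPKM in WT. PSMB9 overlaps TAP1 on the opposite strand, at 2.49 and 4.61 FPKM in KO and 3.91 and 4.17 FPKM in WT. GBP2, ICAM1, LAP3 and WARS also have overlapping annotated genes.

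**Figure D5:**
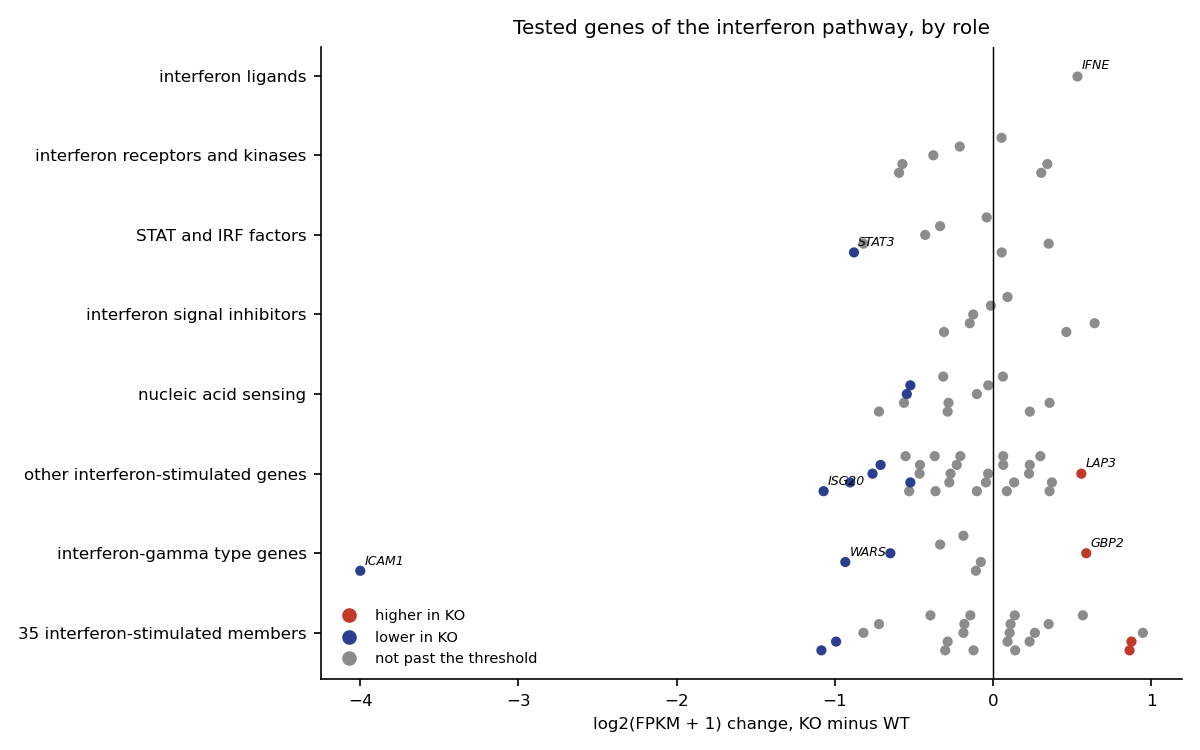
Log2(FPKM + 1) change, KO minus WT, of each tested gene by its role in the interferon pathway, with the members in the bottom row; a gene in several lists appears in each. Red is higher and blue lower in KO past the threshold, and most points are grey, between -1 and 1, with ICAM1 at -4.00.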

How the data were processed

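RNA of HFL1 cells was sequenced as paired-end reads on an Illumina NovaSeq and aligned with HISAT2 2.0.5, per the labels' protocols. The submitters' processing notes name the builds hg38 and mm10. The authors deposited 1 FPKM value for each gene in each library. How reads were counted, by strand or not, and scaled is not given in the sources used here. IDs and coordinates of all 58735 genes equalled GENCODE 29 on GRCh38. FPKM times gene length was a whole multiple of 1 step in 100% of values (tolerance 0.01), which gave the read numbers.

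Values were analysed as log2(FPKM + 1), which understates changes of low genes, in R 4.3.3 with limma 3.58.1, an intensity-dependent prior and no replicate block, and p-values were Benjamini-Hochberg adjusted over 14100 genes with at least 1 FPKM in at least 2 libraries. Folds are ratios of mean FPKM. On simulated counts the fit found the large changes, but a larger share of its calls was false than its threshold names, nearly all of them genes with few reads. Changes were simulated only in genes with a mean of at least 5 FPKM, at the same spread for every gene, so any call of a lower gene was false by design. The 4 called members had 680 to 7131 reads over the 4 libraries, and the called pathway genes 577 or more. IFIT1, IFIT2 and the called pathway genes ISG20, PARP10 and GBP2 had lower means, so the simulation cannot say how such calls fare, whatever their reads. The members and gene lists were chosen with earlier results of these data known. Genes named are CALU, all members, called genes of the pathway lists and each list's most abundant gene; any other gene was picked with its values in view. MB21D1 and STING1 are other names of CGAS and TMEM173 and had no row of their own. 1 planned pathway gene was left out of every list count and is not reported here. Alternatives were other pseudocounts, filters, scalings, a constant prior, a replicate block, each library left out and, added after seeing the data, a minimum of 200 reads.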

Additional observations from a re-analysis of the deposited data

How the results depend on the processing

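CALU stayed lower in KO past the threshold under all 14 alternatives (log2 -3.74 to -3.50). The 2 members called higher and 2 called lower became 0 and 0 with no filter on low values. Over all genes that setting called 183 higher and 193 lower. With the replicate block the members called became 4 and 4 (2968 higher and 2577 lower over all genes). Among genes with at least 5 FPKM in at least 2 libraries, 9 members were tested and 1 and 1 called (1041 lower over all genes). IFIT1 and IFIT2 did not reach that filter, and all 9 tested members stayed on the same side of the threshold. With a minimum of 200 reads over the 4 libraries, chosen after seeing the data, 3 members were called higher and 4 lower, 4 pathway genes higher and 16 lower, and 2042 and 1791 of 12155 genes tested. With 1 library left out the members called ranged from 0 to 2 higher and from 0 to 3 lower, and calls over all genes from 505 to 1321 higher and from 537 to 1260 lower. The 2 higher and 10 lower pathway genes became 0 and 1 with no filter, 0 and 6 with FPKM rescaled to equal sums, 6 and 18 with the replicate block, and 0 to 1 and 2 to 8 with 1 library left out. The cause of these shifts was not tested. Without a filter more genes were tested and limma's prior was fitted again over them, and the leave-out fits had fewer libraries. Pseudocounts of 0.1 and 0.5, quantile normalization and a constant prior left all 23 members on the same side of the threshold; the 12 members below the filter have a test only with no filter, where 0 were called. Signs turned, with no call, when 1 library was left out, for IFIT3 (log2 -0.16 to 0.38), DDX58 (-0.59 to 0.018), USP18 (-0.039 to 0.22), DDX60 (-0.011 to 0.29), PARP9 (-0.27 to 0.029) and PTPN11 (-0.27 to 0.016). Libraries with the same number deviated together (correlation 0.411 across genes), which with 2 pairs, and no shared culture or day in the labels, does not establish pairing; the block added IFITM2, IFITM3, IRF7 and IFIH1 to the called members. With 2 libraries per group, fits without 1 of them assume that the lone library varies like the other group.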
